A study of Homo sapiens with 4 samples.

Results

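The genes of the unfolded protein response and of the integrated stress response were read in 4 cultures of human B-cell lymphoma cells. The set held 33 listed genes of 19775 genes with a value. They fall into 13 genes of endoplasmic reticulum (ER) chaperones and folding, 4 of ER-associated degradation, 7 stress sensors and transcription factors, and 9 ATF4 targets and amino acid genes. A gene entered when the platform annotation gave a probe set exactly 1 symbol from the list, and its value was that of the probe set with the highest mean signal. This gave values for 32 members, all of them above the signal floor of 77.5 on all 4 arrays. No probe set carried SYVN1, the ubiquitin ligase of ER-associated degradation, as its only symbol, so it has no value here.

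The groups were Jeko-1/R, a rituximab-resistant subline of Jeko-1 that the labels describe as rituximab-treated, and its parent Jeko-1, a mantle cell lymphoma line cultured without the antibody; and Raji/R, the resistant subline of Raji, and its parent Raji, a Burkitt lymphoma line, labelled in the same way. Rituximab binds CD20 on the surface of B cells. No genotype change or other agent is named in the labels, and the rituximab dose, its timing and the number of sublines made are not given in the sources used here. Selection for resistance and exposure to the antibody therefore cannot be told apart. There was 1 array for each of the 4 groups, so within a line there is no test and no p-value, and the number of arrays limits the precision.

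The ER folds and modifies proteins that enter the secretory pathway. When unfolded proteins accumulate there, the sensors IRE1 (gene ERN1), PERK (gene EIF2AK3) and ATF6 start the unfolded protein response. IRE1 splices the XBP1 mRNA, cleaved ATF6 acts as a transcription factor, and PERK phosphorylates the initiation factor eIF2. Other kinases phosphorylate eIF2 during amino acid shortage, viral infection or haem deficiency, and the shared outcome, in which ATF4 is translated while most synthesis slows, is called the integrated stress response. B cells use XBP1 to expand the ER when they become plasma cells. The arrays read mRNA from all splice forms that a probe set matches, so they do not show XBP1 splicing, ATF6 cleavage, eIF2 phosphorylation or ATF4 protein.

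Known response elements of both pathways were looked for in the RefSeq promoter windows (GRCh38.p14, 250 bases before to 50 after each annotated gene start). The windows covered 32 members, all but SHMT2, and 27305 genes in all. The ER stress response element ERSE was searched as CCAAT and CCACG separated by 9 bases, and ERSE-II as ATTGG and CCACG separated by 1 base. The unfolded protein response element UPRE was searched as TGACGTGG, and the core of the C/EBP-ATF response element (CARE) as TGATGNAA. All were searched on both strands, and a UPRE match may overlap ERSE-II. ERSE or ERSE-II was found for 9 of 32 members (28.1%), against 44 of 27305 genes (0.161%). Of the 13 chaperone and folding genes 7 held one (53.8%). The CARE core was found for 4 members (12.5%), against 4.46% of all genes, and UPRE for 1 member (3.12%), against 0.927%. A match describes the letters of the window and is not a measured binding site. The elements were picked as known ones of these pathways, so their higher shares among the members are description and no independent result.

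The upstream stretches that hold these elements in 5 chaperone and folding genes are shown because each was at least 1.5-fold higher in Raji/R or passed the test between the cell lines described below. PDIA6 and CANX hold ERSE as well and are not printed. Their subline ratios were level by the probe sets used. Capitals mark the element, read 5′ to 3′ on the gene's strand, and an element on the opposite strand appears as its reverse complement. The stretches are chr9:125241344-125241483 (minus strand) for HSPA5, chr12:103930190-103930409 (plus) for HSP90B1, chr22:49918534-49918633 (plus) for CRELD2, chr22:21642082-21642301 (plus) for SDF2L1 and chr11:119057206-119057425 (minus) for HYOU1. HSPA5 holds ERSE, HSP90B1 holds ERSE on each strand, CRELD2 holds ERSE on the opposite strand, and SDF2L1 holds ERSE-II on the opposite strand. HYOU1 holds ERSE-II on the opposite strand at both marked places, and the upstream one overlaps a UPRE.
HSPA5: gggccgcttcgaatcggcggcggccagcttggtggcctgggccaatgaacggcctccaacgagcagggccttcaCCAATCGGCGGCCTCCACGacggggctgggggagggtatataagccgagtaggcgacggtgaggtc
HSP90B1: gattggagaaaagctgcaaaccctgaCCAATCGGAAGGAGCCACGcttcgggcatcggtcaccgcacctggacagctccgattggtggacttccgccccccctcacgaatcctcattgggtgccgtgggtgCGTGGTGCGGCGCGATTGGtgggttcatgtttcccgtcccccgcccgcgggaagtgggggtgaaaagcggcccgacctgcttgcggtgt
CRELD2: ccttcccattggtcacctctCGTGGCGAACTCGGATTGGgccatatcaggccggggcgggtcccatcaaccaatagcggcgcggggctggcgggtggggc
SDF2L1: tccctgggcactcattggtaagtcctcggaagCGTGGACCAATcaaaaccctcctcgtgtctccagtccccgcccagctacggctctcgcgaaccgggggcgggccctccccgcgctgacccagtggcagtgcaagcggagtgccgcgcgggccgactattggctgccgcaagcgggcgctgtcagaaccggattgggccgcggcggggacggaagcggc
HYOU1: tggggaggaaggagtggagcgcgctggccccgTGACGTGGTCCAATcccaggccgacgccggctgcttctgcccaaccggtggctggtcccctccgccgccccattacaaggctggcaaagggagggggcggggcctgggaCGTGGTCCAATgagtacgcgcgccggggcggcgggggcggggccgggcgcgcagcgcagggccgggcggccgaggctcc

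Shown for the other roles are XBP1, the transcription factor with an ERSE (chr22:28800570-28800669, minus strand), and HERPUD1, which holds both an ERSE-II and a CARE core (chr16:56931942-56932141, plus). CHAC1 (chr15:40953231-40953470, plus) and ASNS (chr7:97872409-97872508, minus) are shown as ATF4 targets whose windows hold the CARE core, and both differed between the cell lines.
XBP1: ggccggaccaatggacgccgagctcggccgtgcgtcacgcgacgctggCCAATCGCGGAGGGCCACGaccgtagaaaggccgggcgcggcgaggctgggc
HERPUD1: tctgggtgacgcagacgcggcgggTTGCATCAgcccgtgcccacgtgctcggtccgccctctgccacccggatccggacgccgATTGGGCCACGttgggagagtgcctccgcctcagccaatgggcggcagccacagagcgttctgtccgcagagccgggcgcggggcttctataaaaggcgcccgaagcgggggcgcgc
CHAC1: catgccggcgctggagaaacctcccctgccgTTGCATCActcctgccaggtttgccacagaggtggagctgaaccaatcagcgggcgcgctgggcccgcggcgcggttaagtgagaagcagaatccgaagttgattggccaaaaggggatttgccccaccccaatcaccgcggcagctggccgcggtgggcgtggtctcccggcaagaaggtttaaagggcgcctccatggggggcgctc
ASNS: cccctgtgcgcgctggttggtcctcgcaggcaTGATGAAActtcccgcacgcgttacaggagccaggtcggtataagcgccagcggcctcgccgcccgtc

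**Figure D1:**
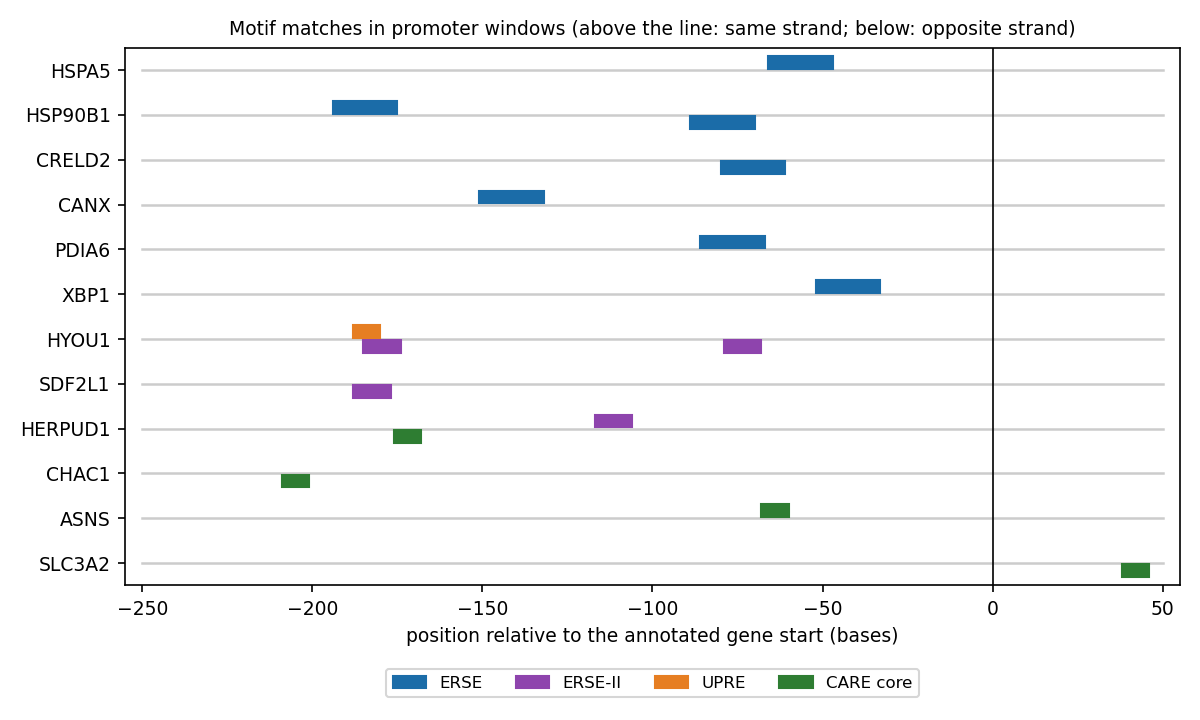
Matches to ERSE, ERSE-II, UPRE and the CARE core in the first listed promoter window of the 12 members with a match, plotted by distance in bases from the annotated gene start (vertical line). Blocks above each line are on the gene's strand and blocks below it on the opposite strand; of the matches drawn, all but that of SLC3A2 lie upstream of the start. CANX has further windows, not drawn, with an ERSE in each, and in its second window the match spans the start (-9 to 10).

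The arrays were of similar scale, with trimmed mean signals of 494 to 497. Raji/R stood apart in its dim range: 55.6% of its probe sets reached the floor, against 48.0% to 48.3% on the other 3 arrays. All 5 B-cell markers with a value were above the floor on all 4 arrays, and CCND1 and SOX11, genes high in mantle cell lymphoma, were above it only in the Jeko-1 lines. Of 3 NK-cell markers, 3 reached the floor in Raji/R and 2 in Raji, with summed signals of 2030 and 1046, and 0 in the Jeko-1 lines. Most of these sums came from NKG7, at 1749 in Raji/R and 883 in Raji. KLRD1 was lower in Raji/R (79.3 against 133) and NCAM1 higher (202 against 30.0). Epithelial and stromal markers summed to 1809 in Raji/R and 2187 in Raji, mostly from COL1A1 (1465 and 1916). T-cell markers summed to 365 and 291 there, and myeloid markers to 359 and 211. The part of these differences in the results below was not tested. A ratio between bulk cultures cannot separate a change in the cells that express a gene from a change of RNA per cell.

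In Jeko-1/R most members sat slightly above Jeko-1, and none differed by 1.5-fold. The log2 ratio of Jeko-1/R over Jeko-1 was above 0 for 26 of 32 members (81.2%), against 50.2% of all 11588 genes measured in this pair and 48.0% of the 5044 genes with a mean signal of at least 1024. The median ratio of the members was 1.06-fold (log2 0.08), against a log2 median of 0.00 for all genes. The members ranged in log2 ratio from -0.09 to 0.47. A 1.5-fold higher signal was seen in 0 members and in 2.68% of all genes, and a 1.5-fold lower signal in 0 members and in 3.37%. Among the 5044 genes with a mean signal of at least 1024, only 21 were 1.5-fold higher and 37 were 1.5-fold lower. At 2-fold the shares of all genes were 0.38% higher and 0.595% lower. For scale, the probe sets that read a common gene differed in log2 ratio by an SD of 0.25 in this pair, and most members differed from 0 by less than this spread. Among the 17 members with further probe sets above the floor, 17 of 29 of these probe sets had the sign of the value used. The lean upwards is a description of these 2 cultures, since without replicates culture variation was not measured.

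**Figure D2:**
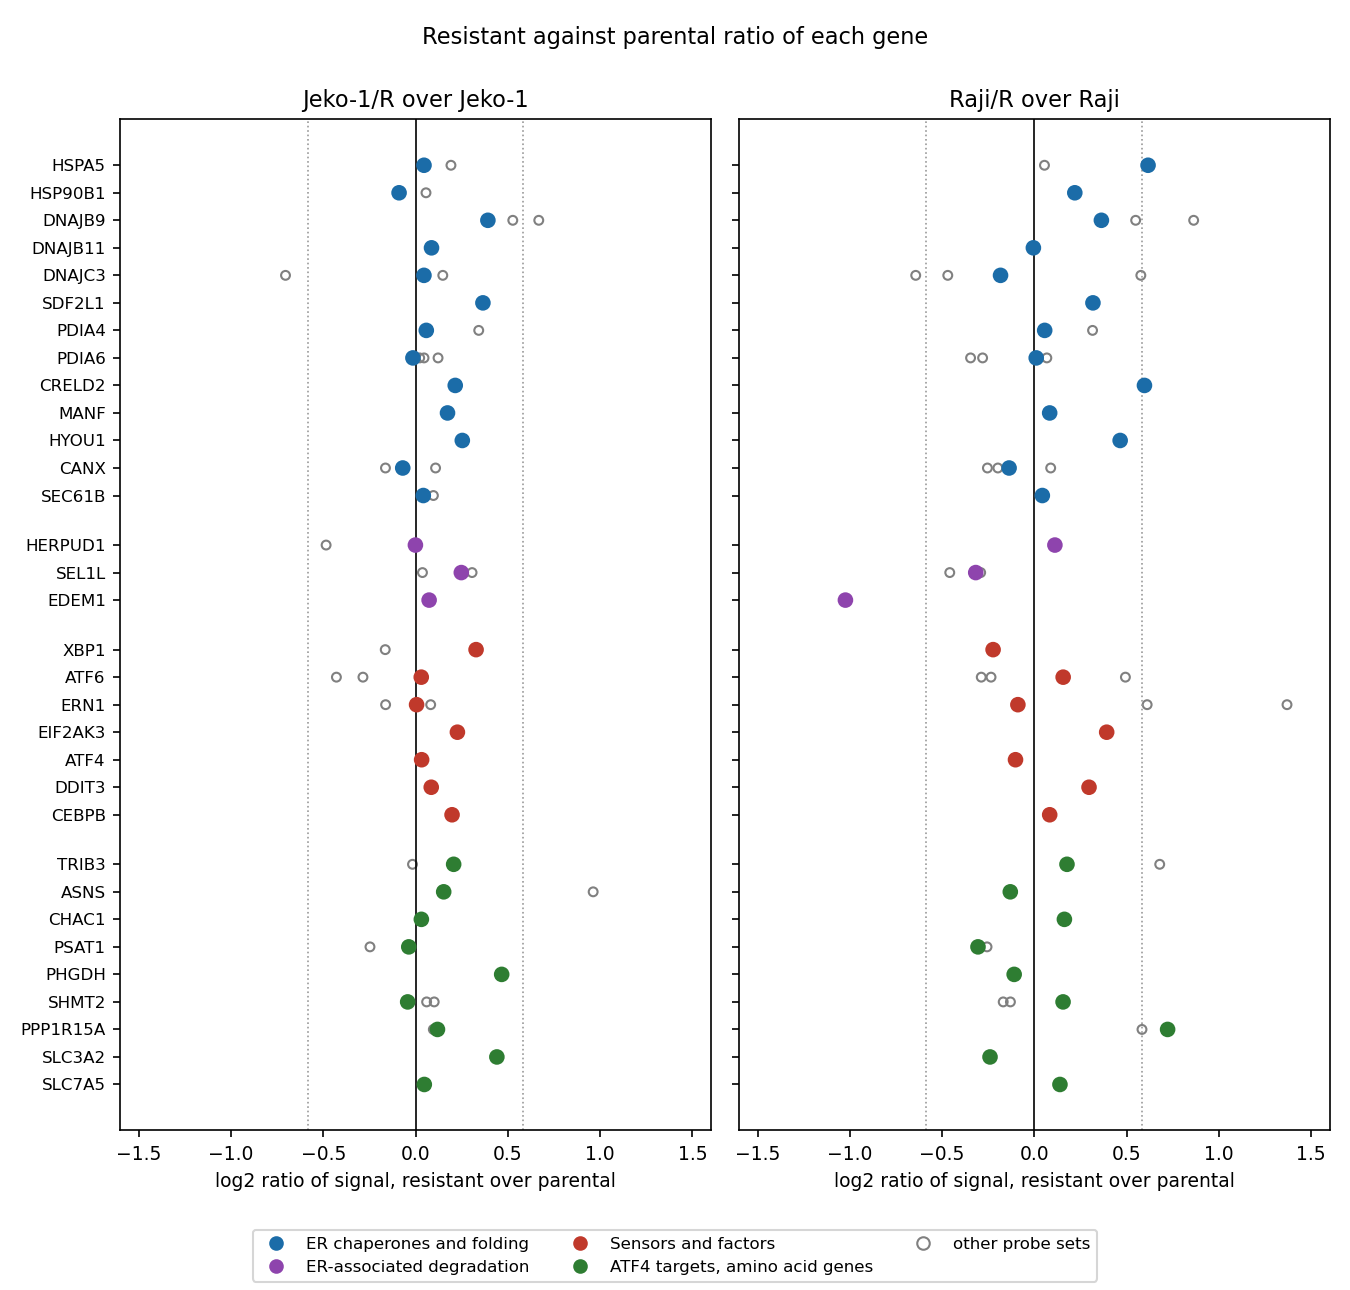
Log2 ratio of signal, resistant over parental, for each member in the Jeko-1 pair (left) and the Raji pair (right), coloured by role; open circles are other probe sets of the gene and dotted lines mark 1.5-fold. In the left panel 26 of 32 filled points lie to the right of 0 and none reaches a dotted line; in the right panel HSPA5, CRELD2 and PPP1R15A pass 1.5-fold higher and EDEM1 lies at -1.02.

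The Raji pair had wider ratios and less of a common direction. The log2 ratio of Raji/R over Raji was above 0 for 20 of 32 members (62.5%), against 56.1% of 14642 genes measured and 47.1% of the 4750 genes with a mean signal of at least 1024. The members' median log2 ratio of 0.08 equalled that of all genes to 2 decimals. A 1.5-fold higher signal was seen in 3 members, HSPA5, CRELD2 and PPP1R15A, and in 18.7% of all genes. The HSPA5 log2 ratio of 0.62 dropped below 1.5-fold with quantile normalization (0.49), lowess (0.54) and the mean of its probe sets (0.34), and that of CRELD2, 0.60, with the pseudocount (0.57). A 1.5-fold lower signal was seen in 1 member, EDEM1, and in 10.5% of all genes. EDEM1 was also the 1 member past 2-fold, at which 7.01% of all genes were higher and 2.64% lower. Among the 4750 genes with a mean signal of at least 1024, 238 were 1.5-fold higher and 368 were 1.5-fold lower. The spread between probe sets that read a common gene had an SD of 0.49 on the log2 scale here, and 13 of 22 further probe sets of 12 members had the sign of the value used.

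**Figure D3:**
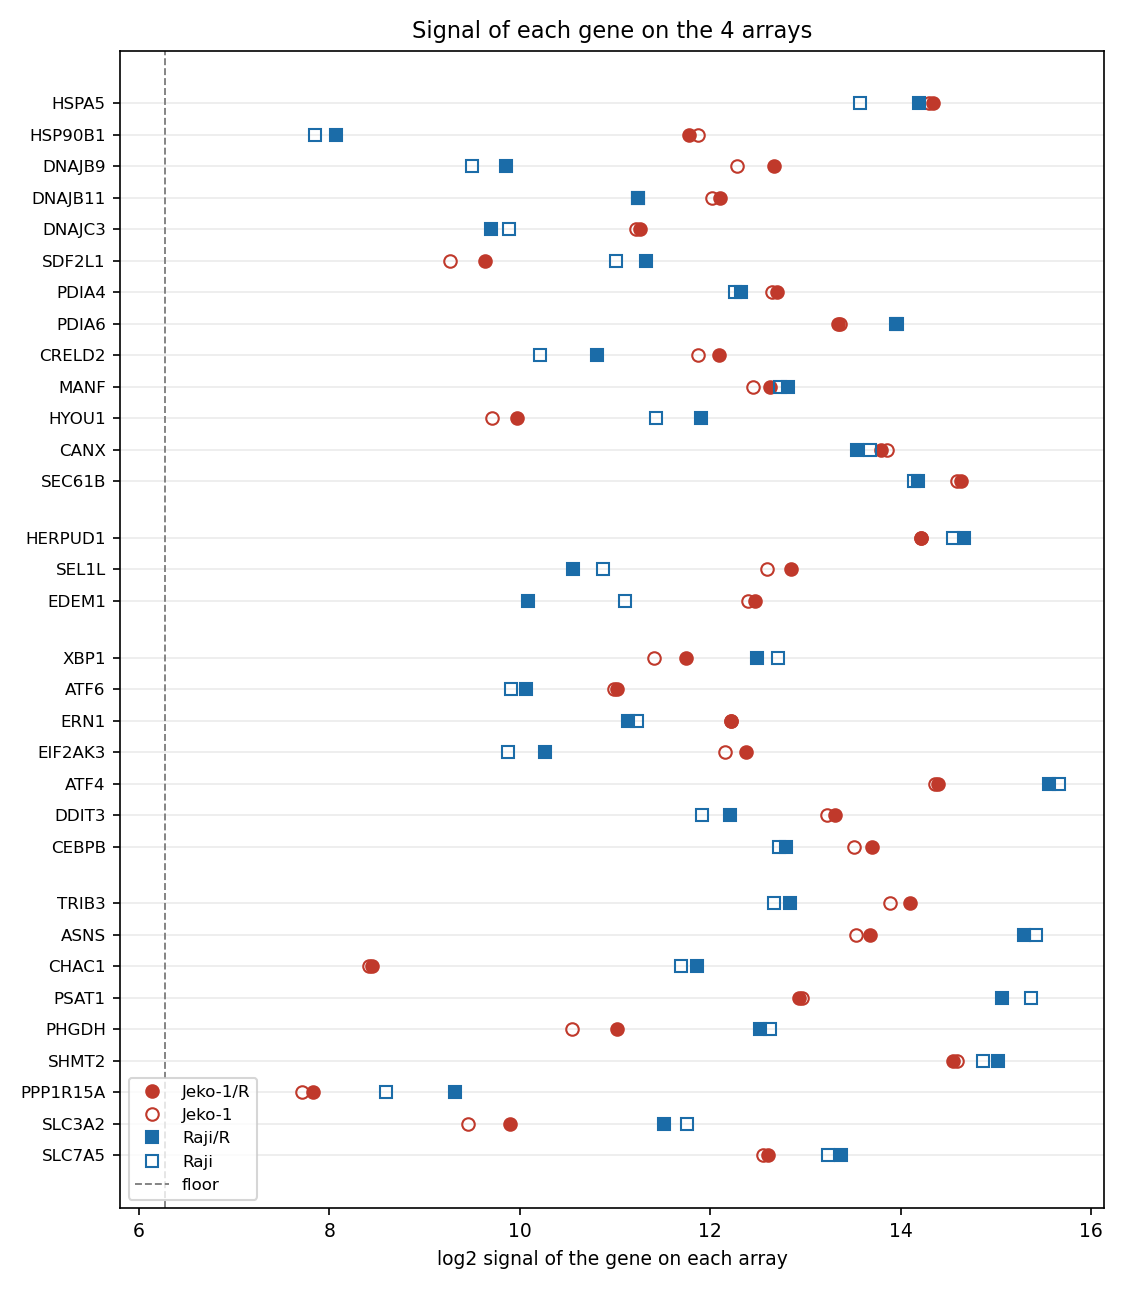
Log2 signal of each member on the 4 arrays, with Jeko-1/R and Jeko-1 as filled and open circles and Raji/R and Raji as filled and open squares; the dashed line is the signal floor. For most members the circles and the squares form separate groups, and the distance between the groups exceeds the distance within each.

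Between sublines and parents, the chaperones that bind unfolded proteins in the ER lumen differed most for HSPA5 in the Raji pair. HSPA5, the gene of BiP, the Hsp70-family chaperone of the ER and a repressor of the sensors, had a signal of 20716 in Jeko-1/R against 20068 in Jeko-1, and 18698 in Raji/R against 12200 in Raji. Only Raji stood apart, and the Raji/R signal was 1.53-fold that of Raji while the Jeko-1 pair differed by 1.03-fold. The dimmer second probe set of HSPA5 gave a log2 ratio of 0.05 in the Raji pair, against 0.62 for the brightest. HYOU1, the ER chaperone that acts as a nucleotide exchange factor for BiP, had 1000.12 in Jeko-1/R against 839 in Jeko-1, and 3816 in Raji/R against 2765 in Raji. The resistant subline was higher in both lines, by 1.19-fold and 1.38-fold. HSP90B1, the gene of the ER Hsp90 GRP94, had 3513 in Jeko-1/R against 3737 in Jeko-1, and 269 in Raji/R against 231 in Raji. The Jeko-1 pair overlapped closely and lay far above the Raji pair. HSP90B1 was read here by a probe set of a type that can match several transcripts, and its other probe sets with several symbols were not used.

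The J-domain cochaperones of BiP behaved in unlike ways. DNAJB9 (ERdj4), a cochaperone that also holds IRE1 in its inactive state, was higher in both sublines, with 6518 in Jeko-1/R against 4967 in Jeko-1, and 929 in Raji/R against 722 in Raji. All 3 probe sets of DNAJB9 gave ratios above 0 in both pairs, with log2 values of 0.39, 0.53 and 0.67 in the Jeko-1 pair, and 0.36, 0.86 and 0.55 in the Raji pair. DNAJB11 (ERdj3) had 4403 in Jeko-1/R against 4147 in Jeko-1, and 2412 in Raji/R against 2421 in Raji. Its sublines and parents were nearly level. DNAJC3 (p58IPK), a cochaperone also known as an inhibitor of eIF2 kinases, had 2454 in Jeko-1/R against 2378 in Jeko-1, and 833 in Raji/R against 946 in Raji. Its log2 ratio was 0.05 in the Jeko-1 pair, against -0.18 in the Raji pair, with other Raji probe sets at -0.47, -0.64 and 0.58. SDF2L1, a component of the ERdj3 complex, had 792 in Jeko-1/R against 615 in Jeko-1, and 2567 in Raji/R against 2060 in Raji. Like DNAJB9 and HYOU1, SDF2L1 was higher in both sublines, by 1.29-fold and 1.25-fold.

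CRELD2 and MANF, ER-stress-induced proteins that can be secreted, were higher in both sublines. CRELD2 had 4357 in Jeko-1/R against 3753 in Jeko-1, and 1793 in Raji/R against 1186 in Raji, a 1.16-fold and a 1.51-fold ratio. MANF, a neurotrophic factor that binds BiP, had 6317 in Jeko-1/R against 5602 in Jeko-1, and 7218 in Raji/R against 6815 in Raji. Its 1.13-fold and 1.06-fold ratios lie well within the probe-set spread. The disulfide isomerases and the remaining folding genes were level by the probe sets used. PDIA4 had log2 ratios of 0.06 in both pairs, although its second probe set gave 0.34 and 0.32. PDIA6, an isomerase that also acts on IRE1, had log2 ratios of -0.01 (Jeko-1 pair) and 0.01 (Raji pair). Its other probe sets gave -0.35, -0.28 and 0.07 in the Raji pair, and 0.12, 0.02 and 0.05 in the Jeko-1 pair. CANX, the lectin chaperone calnexin, was at -0.07 and -0.14, and SEC61B, a subunit of the translocon, at 0.04 in both pairs. Of the 13 chaperone and folding genes 10 were above 0 in each pair. The 9 members with ERSE or ERSE-II had a median log2 ratio of 0.05 in the Jeko-1 pair, with 5 above 0 and 4 below, against 0.09 for the 22 other members with a promoter and a value (21 above, 1 below). In the Raji pair their median was 0.22, with 7 above 0 and 2 below, against 0.05 for those 22 (12 above, 10 below). The members with the element thus had the lower median in the Jeko-1 pair and the higher one in the Raji pair.

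The genes of ER-associated degradation, which returns misfolded proteins to the cytosol for the proteasome, were lower in Raji/R for 2 of 3 members. EDEM1, which extracts misfolded glycoproteins from the folding cycle, had a signal of 5670 in Jeko-1/R against 5388 in Jeko-1, and 1085 in Raji/R against 2206 in Raji. Raji/R was thus lower than its parent by 2.03-fold, and both Jeko-1 cultures were above both Raji cultures. EDEM1 has 1 probe set, so no second reading was at hand. SEL1L, the adaptor of the SYVN1 ligase, had 7340 in Jeko-1/R against 6181 in Jeko-1, and 1505 in Raji/R against 1876 in Raji. Its log2 ratio was 0.25 in the Jeko-1 pair, against -0.32 in the Raji pair, and the other SEL1L probe sets above the floor in the Raji pair gave -0.46 and -0.29. HERPUD1, an ER membrane protein that organises the degradation complex, had 18934 in Jeko-1/R against 18944 in Jeko-1, and 25945 in Raji/R against 24023 in Raji. HERPUD1 was level in both pairs by this probe set. Its other, dimmer probe set gave a log2 ratio of -0.48 in the Jeko-1 pair and lay below the floor in the Raji pair.

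The sensors and transcription factors were all above 0 in the Jeko-1 pair, 7 of 7, and 4 of 7 were above 0 in the Raji pair. In the Jeko-1 pair ERN1, ATF6 and ATF4 were level, with log2 ratios of 0.01, 0.03 and 0.03. Other probe sets in that pair gave -0.16 and 0.08 for ERN1, -0.29, 0.03 and -0.43 for ATF6, and -0.16 for XBP1. EIF2AK3, the gene of PERK, was higher in both sublines, with 5319 in Jeko-1/R against 4545 in Jeko-1, and 1234 in Raji/R against 940 in Raji. These are 1.17-fold and 1.31-fold ratios. XBP1 had 3426 in Jeko-1/R against 2729 in Jeko-1, and 5746 in Raji/R against 6710 in Raji. XBP1 was the factor with the largest log2 ratio in the Jeko-1 pair, 0.33, and stood at -0.22 in the Raji pair. ERN1 had 4764 in Jeko-1/R against 4746 in Jeko-1, and 2253 in Raji/R against 2397 in Raji. The ERN1 pairs were level by this probe set, while other ERN1 probe sets gave log2 ratios of 1.37 and 0.61 in the Raji pair, so its Raji value depends on the probe set. ATF6 had 2070 in Jeko-1/R against 2026 in Jeko-1, and 1072 in Raji/R against 962 in Raji. Its other probe sets also disagreed, with -0.24, 0.49 and -0.29 in the Raji pair.

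Downstream of PERK, ATF4 had similar signals in sublines and parents, 21446 in Jeko-1/R against 20960 in Jeko-1, and 48220 in Raji/R against 51767 in Raji. Its log2 ratios were 0.03 and -0.10. DDIT3, the gene of the pro-apoptotic factor CHOP, had 10183 in Jeko-1/R against 9601 in Jeko-1, and 4722 in Raji/R against 3846 in Raji. CEBPB, a C/EBP factor that binds DNA with ATF4, had 13321 in Jeko-1/R against 11614 in Jeko-1, and 7128 in Raji/R against 6730 in Raji. The DDIT3 ratio was 1.06-fold in the Jeko-1 pair, against 1.23-fold in the Raji pair, and the CEBPB ratio was 1.15-fold and 1.06-fold. Each of these is within the probe-set spread of its pair.

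Among the ATF4 targets, 7 of 9 were above 0 in the Jeko-1 pair and 5 of 9 in the Raji pair. PPP1R15A, the gene of GADD34, which directs the phosphatase that restores eIF2, had 227 in Jeko-1/R against 209 in Jeko-1, and 637 in Raji/R against 386 in Raji. Raji/R was 1.65-fold above Raji, and the second probe set gave 0.58 on the log2 scale against 0.72 for the value used. TRIB3, a pseudokinase that dampens the response, had 17516 in Jeko-1/R against 15180 in Jeko-1, and 7334 in Raji/R against 6489 in Raji. CHAC1, which degrades glutathione, had 350 in Jeko-1/R against 342 in Jeko-1, and 3716 in Raji/R against 3320 in Raji. By the probe sets used for TRIB3 and CHAC1, the sublines were at or slightly above their parents, by 1.02-fold to 1.15-fold. A dimmer second TRIB3 probe set read 274 in Raji/R against 171 in Raji, a log2 ratio of 0.68, which is past 1.5-fold. For Jeko-1/R over Jeko-1 that probe set gave -0.02. The size of the TRIB3 ratio between Raji/R and Raji therefore depends on the probe set.

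Several amino acid genes differed in sign between the pairs, but their Raji ratios lay within the probe-set spread of that pair (SD 0.49). No member went opposite ways in the pairs by more than the spread of each pair. PHGDH, the first enzyme of serine synthesis, had 2070 in Jeko-1/R against 1498 in Jeko-1, and 5878 in Raji/R against 6342 in Raji. SLC3A2, the heavy chain shared by several amino acid transporters, had 955 in Jeko-1/R against 704 in Jeko-1, and 2915 in Raji/R against 3444 in Raji. These were the largest ratios among the members in the Jeko-1 pair, 1.38-fold for PHGDH and 1.36-fold for SLC3A2, while their log2 ratios in the Raji pair were -0.11 and -0.24. SLC7A5, a light chain that pairs with SLC3A2 to import leucine and other large amino acids, had log2 ratios of 0.05 and 0.14. PSAT1, the next enzyme of serine synthesis, had 7790 in Jeko-1/R against 7991 in Jeko-1, and 34178 in Raji/R against 42244 in Raji. ASNS, asparagine synthetase, had 13100 in Jeko-1/R against 11787 in Jeko-1, and 40106 in Raji/R against 43906 in Raji. The log2 ratio of PSAT1 was -0.04 (Jeko-1 pair) and -0.31 (Raji pair), and that of ASNS was 0.15 and -0.13. The other ASNS probe set, near the floor in Jeko-1 and below it in the Raji pair, gave 0.96 in the Jeko-1 pair. SHMT2, which makes glycine from serine in mitochondria, was level, at -0.04 and 0.16. Its other probe sets had the opposite signs, at 0.06 and 0.10 in the Jeko-1 pair and -0.17 and -0.13 in the Raji pair.

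Set side by side, 16 of 32 members were higher in both sublines, 2 were lower in both (CANX and PSAT1), 10 were higher in Jeko-1/R and lower in Raji/R, and 4 the reverse. The same sign in both pairs was thus seen in 18 of 32 members and in 5306 of the 10655 genes measured in both pairs. Across members the 2 log2 ratios had a Pearson r of 0.07, against -0.03 across all these genes, and genes are not independent replicates. The fit of resistance over both lines (limma, cell line and resistance as terms, two-sided, Benjamini-Hochberg over 15575 genes) called 0 members and 0.0% of all genes higher, and 0 members and 0.0% of all genes lower. The lowest adjusted p from limma was 0.974. At an unadjusted p under 0.05 there were 0 of 32 members and 324 of 15575 genes (2.08%). The largest fitted difference was that of EDEM1, at -0.48 ± 0.32 on the log2 scale (SE, limma), followed by PPP1R15A at 0.42 ± 0.27 and CRELD2 at 0.41 ± 0.25. DNAJB9 was at 0.38 ± 0.24 and HYOU1 at 0.36 ± 0.25. The fit had 1 residual degree of freedom, and none of these differences passed.

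Many members, like many genes of the series, differed between the cell lines. The line term of the same fit called 13 of 32 members higher and 11 lower in the Jeko-1 lines than in the Raji lines at an adjusted p under 0.05, against 23.3% of all genes higher and 30.1% lower. All 32 members were above the floor on all 4 arrays, while a fitted gene needed only 1 array at or above it. With the floor at the 75th percentile, larger shares of genes were called, 3096 of 9248 higher and 3593 lower. The median difference of the members was 0.30 on the log2 scale, against -0.28 for all genes. The 2 arrays of a line are a parent and its subline, so these p-values measure the spread between related cultures and not between independent cultures of a line.

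**Figure D4:**
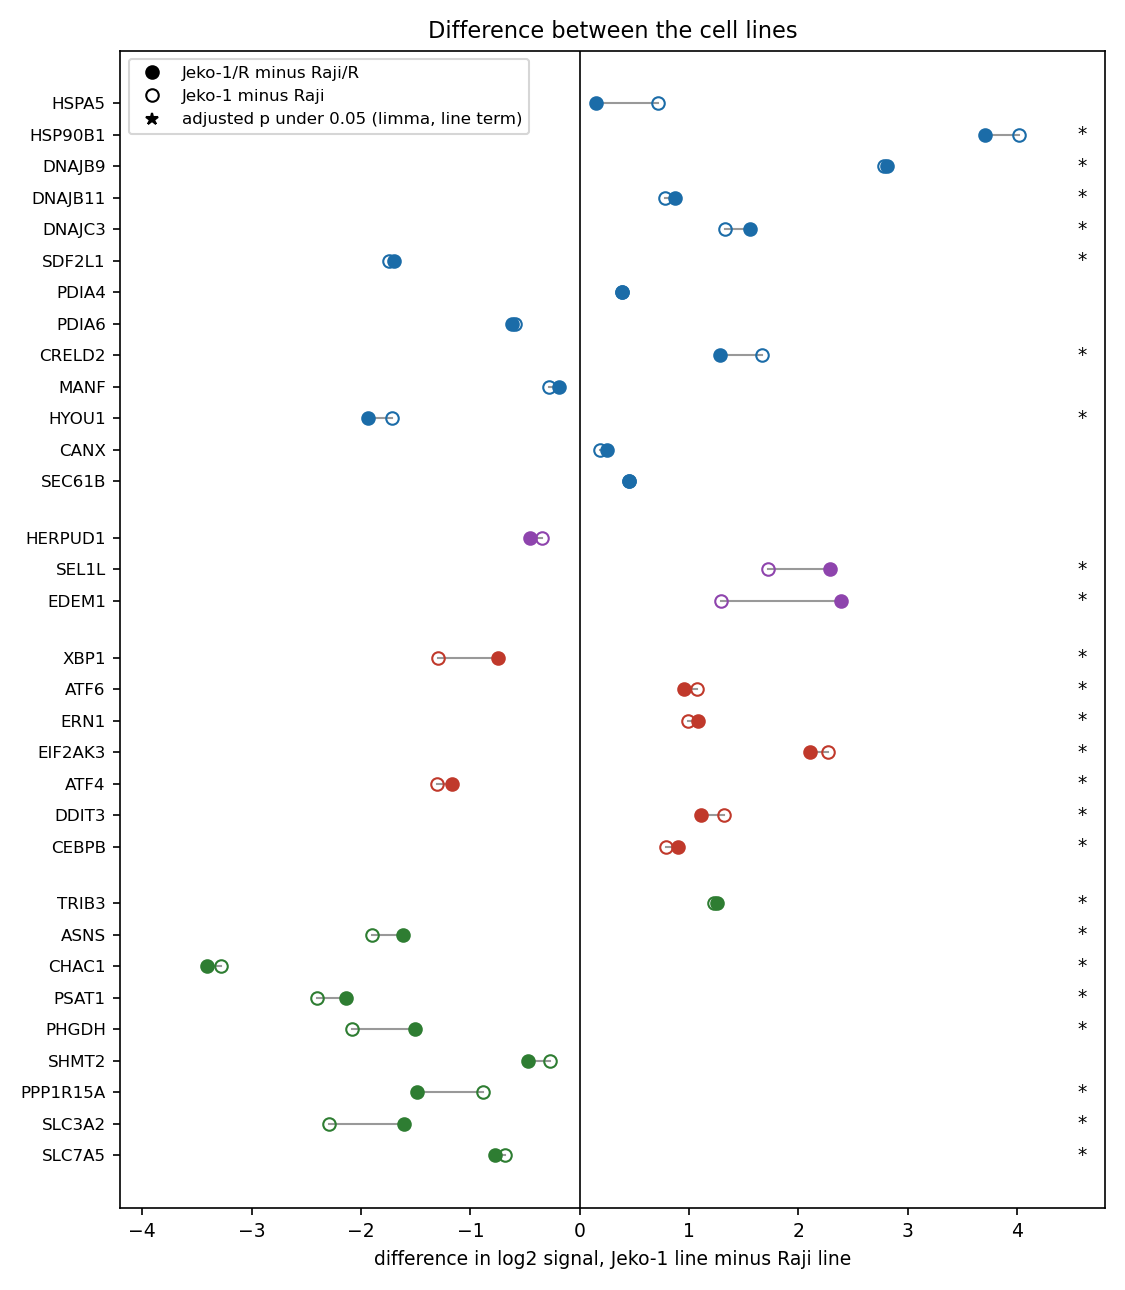
Difference in log2 signal between the Jeko-1 and Raji lines for each member, in the resistant sublines (filled) and in the parents (open), coloured by role as in the plot of ratios; asterisks mark an adjusted p under 0.05 for the line term (limma). The ATF4 targets lie left of 0 except TRIB3, the sensors and factors right of 0 except XBP1 and ATF4; with quantile normalization ATF4 (0.04) and SHMT2 (0.80) lie right of 0.

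The difference between the lines was counted by role. Of 9 ATF4 targets and amino acid genes, 7 were lower in the Jeko-1 lines and 1, TRIB3, was higher. Of 7 sensors and factors, 5 were higher and 2 lower, of 13 chaperone and folding genes 5 were higher and 2 lower, and of 3 degradation genes 2 were higher and 0 lower. The median log2 difference was -1.76 for the ATF4 targets, 1.01 for the sensors and factors, 0.43 for the chaperones and 1.84 for the degradation genes. The wider lists of the same pathways did not share the members' upward medians: 9 of 31 other ER chaperones and folding enzymes were higher and 15 lower in the Jeko-1 lines (median -0.60), 6 of 24 other degradation genes were higher and 8 lower (-0.33), and 4 of 16 other stress sensors and ER membrane factors were higher and 6 lower (-0.38). Of 31 other ATF4 targets 10 were higher and 17 lower (median -0.91). The counts by role therefore describe the members, and for the chaperones, degradation genes and sensors they do not describe the pathways as a whole. For the ATF4 targets the median was below 0 in the members and in the wider list. Of 17 aminoacyl-tRNA synthetases 4 were higher and 9 lower (median -0.70). Of 46 translocon and secretory genes 19 were higher and 15 lower (-0.22). Of 18 genes of the eIF2 kinases, phosphatase and eIF2B 7 were higher and 4 lower (0.01). With quantile normalization 17 members were called higher and 9 lower, and the brightest genes moved towards the Jeko-1 lines.

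CHAC1 showed the widest gap among the ATF4 targets, with signals of 350 in Jeko-1/R and 342 in Jeko-1, against 3716 in Raji/R and 3320 in Raji. Its log2 difference was -3.34 ± 0.24 (SE, limma adjusted p = 7.585e-05), which is 10.2-fold higher in the Raji lines. The serine enzymes PSAT1 (4.82-fold, limma adjusted p = 0.000343) and PHGDH (3.47-fold, adjusted p = 0.00131) were also higher in the Raji lines, as was the transporter chain SLC3A2 (3.86-fold, adjusted p = 0.00103). ASNS was 3.38-fold higher in the Raji lines (limma adjusted p = 0.00105) by its bright probe set, while its only other probe set lay near the floor and gave a difference of 0.56 in favour of the Jeko-1 lines. PPP1R15A was 2.27-fold and SLC7A5 1.66-fold higher in the Raji lines. TRIB3 went against these genes and was 2.36-fold higher in the Jeko-1 lines (limma adjusted p = 0.00446). SHMT2 did not pass, at -0.37 ± 0.25 (SE).

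ATF4 itself had signals of 21446 in Jeko-1/R and 20960 in Jeko-1, against 48220 in Raji/R and 51767 in Raji. This is 2.36-fold higher in the Raji lines (limma adjusted p = 0.00464), but with quantile normalization the log2 difference was 0.04, so the direction depends on how the arrays are scaled. XBP1 was 2.03-fold higher in the Raji lines (limma adjusted p = 0.0149), where a mean over its probe sets, the second of which was near or below the floor, gave a log2 difference of 0.54. The sensors went the other way. EIF2AK3 was 4.57-fold higher in the Jeko-1 lines (limma adjusted p = 0.000376), ERN1 2.05-fold and ATF6 2.02-fold. DDIT3 was 2.32-fold and CEBPB 1.80-fold higher in the Jeko-1 lines, opposite to ATF4.

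Among the chaperones, HSP90B1 had the largest line difference, 14.6-fold higher in the Jeko-1 lines (log2 3.86 ± 0.25, SE, limma adjusted p = 5.35e-05). DNAJB9 was 6.95-fold higher there (limma adjusted p = 0.000137), CRELD2 2.77-fold, DNAJC3 2.72-fold and DNAJB11 1.77-fold. HYOU1 and SDF2L1 were higher in the Raji lines, by 3.55-fold and 3.29-fold (limma adjusted p = 0.000838 and 0.00104). HSPA5 did not pass, at 0.43 ± 0.27 (SE, limma adjusted p = 0.214), nor did PDIA4, PDIA6, MANF, CANX or SEC61B. For HSPA5, CANX and SEC61B the difference with quantile normalization was 1.39, 0.91 and 1.47 on the log2 scale and passed, and the signs of PDIA6 and MANF turned to 0.04 each. SEL1L was 4.01-fold and EDEM1 3.57-fold higher in the Jeko-1 lines (limma adjusted p = 0.000779 and 0.00265), and HERPUD1 did not pass, at -0.40 ± 0.24 (SE), with 0.62 under quantile normalization.

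Of the genes in wider lists of the same pathways, the limma fit of resistance called 0. In the Jeko-1 pair 14 of 17 aminoacyl-tRNA synthetases, which charge tRNAs and include many ATF4 targets, had a ratio above 0, with a median log2 of 0.08. Of 31 other ER chaperones and folding enzymes 54.8% were above 0 in the Jeko-1 pair, and of 45 genes of the translocon and secretory path 51.1%, against 50.2% of all genes. Other ATF4 targets were above 0 there for 18 of 27 (66.7%), other degradation genes for 14 of 23 (60.9%), other sensors and ER membrane factors for 8 of 15 (53.3%), and genes of the eIF2 kinases, phosphatase and eIF2B for 7 of 18 (38.9%). In the Raji pair 8 of 24 other degradation genes and 12 of 29 other ATF4 targets were above 0, with median log2 ratios of -0.10 and -0.15. Also above 0 there were 8 of 17 aminoacyl-tRNA synthetases, 15 of 30 other ER chaperones, 19 of 46 translocon and secretory genes, 10 of 18 eIF2 genes and 9 of 16 other sensors, against 56.1% of all genes. The CARE core was in the windows of 7 of 16 aminoacyl-tRNA synthetases (43.8%) and 7 of 23 other ATF4 targets (30.4%), against 4.46% of all genes, and UPRE in 10 of 42 translocon and secretory genes (23.8%), against 0.927%.

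**Figure D5:**
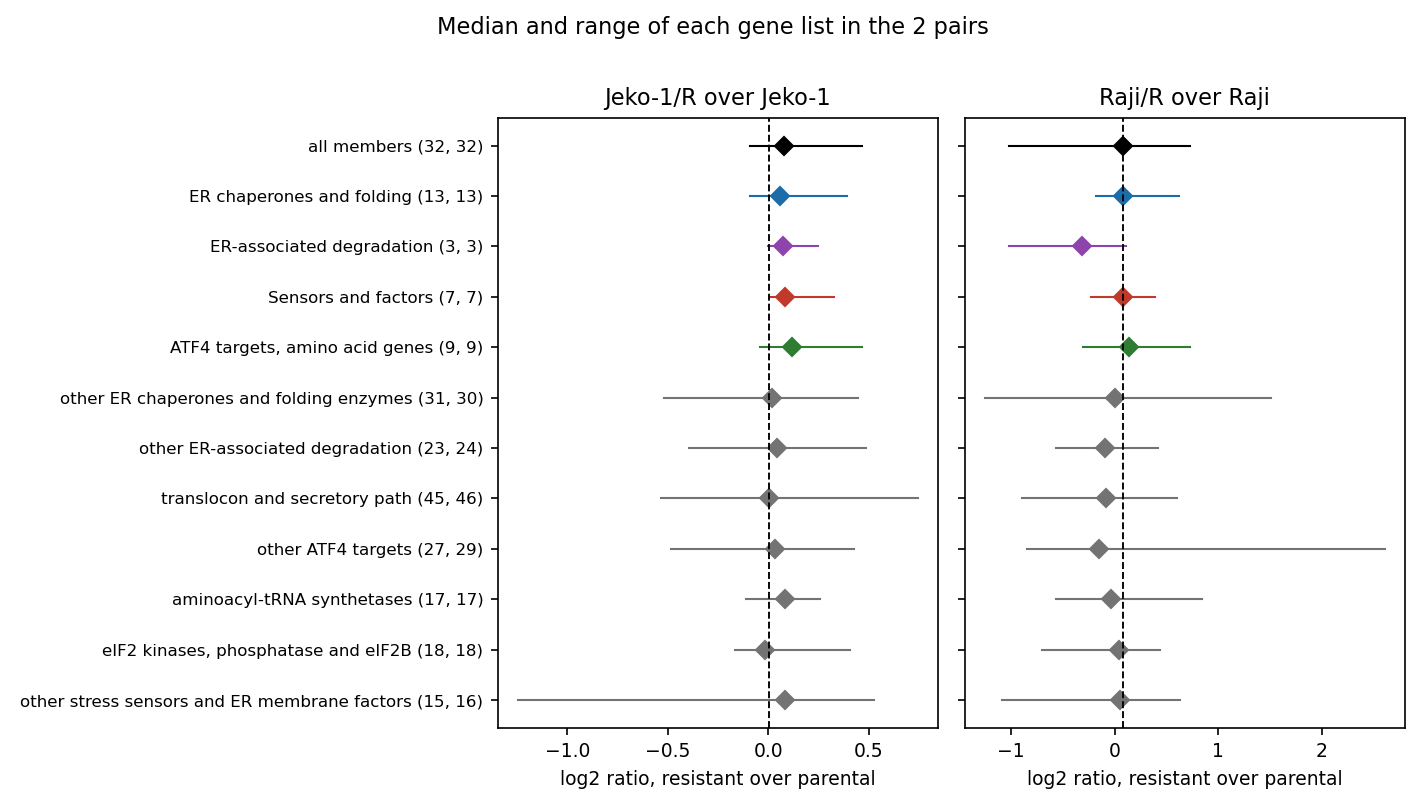
Median (diamond) and range (line) of the log2 ratio, resistant over parental, for the members, their roles and the wider pathway lists, with the number of genes measured in the Jeko-1 and the Raji pair in parentheses; the dashed line is the median of all genes measured in that pair. The members' medians are 0.08 in both pairs, and their log2 ratios span -0.09 to 0.47 in the Jeko-1 pair and -1.02 to 0.72 in the Raji pair.

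In these lists, GDF15, a secreted cytokine induced by the integrated stress response, had the largest ratio in the Raji pair, with 4794 in Raji/R against 787 in Raji, 6.09-fold, and a second probe set at 1.11 on the log2 scale. EIF4EBP1, a repressor of cap-dependent translation, had 167 in Raji/R and lay below the floor in Raji, at least 2.15-fold. CRELD1, a relative of CRELD2, had 282 in Raji/R against 99.2 in Raji. The Raji signals of CRELD1 and EIF4EBP1 were dim, in the range where Raji/R had more probe sets above the floor, and its part in these ratios was not tested. VARS1, the valyl-tRNA synthetase, had 2396 in Raji/R against 1332 in Raji, and MOGS, a glucosidase that trims N-glycans, 738 against 459. KDELR1, a receptor that returns ER proteins from the Golgi, had 9478 in Raji/R against 6236 in Raji, and FICD, which modifies BiP, 568 against 367. Each of these 4 genes was between 1.52-fold and 1.80-fold higher in Raji/R by the probe sets used. The second KDELR1 probe set gave 0.23 on the log2 scale.

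Lower in Raji/R were DNAJC10, an ER disulfide reductase, with 495 against 1177 in Raji, and MAP3K5 (ASK1), a kinase downstream of IRE1, with 799 against 1703. For DNAJC10, 3 of its 4 other probe sets were also below 0, while the other MAP3K5 probe set gave -0.16. MCFD2, a cargo receptor subunit, had 4519 in Raji/R against 8384 in Raji, and SEC24D, a COPII coat subunit, 242 against 394. Another MCFD2 probe set gave -0.33 on the log2 scale. CTH, an enzyme of cysteine synthesis, had 953 in Raji/R against 1713 in Raji, with a second probe set at 0.11 on the log2 scale. The eIF2 kinase genes EIF2AK4 (GCN2) and EIF2AK2 (PKR) had 705 and 302 in Raji/R, against 1149 and 466 in Raji, but the second EIF2AK4 probe set gave 1.22. Another EIF2AK2 probe set gave -0.11. In the Jeko-1 pair only SEC61A2, at 203 in Jeko-1/R against 121 in Jeko-1, and ERN2, at 111 against 264, passed 1.5-fold, and their other probe sets gave -0.02 and 0.09 for SEC61A2 and 0.27 for ERN2.

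Genes of the plasma cell programme and of the cytosolic heat shock response gave context. IRF4, a factor that drives plasma cell differentiation, had 6385 in Jeko-1/R against 5515 in Jeko-1, and 332 in Raji/R against 175 in Raji. PRDM1 (Blimp-1), its partner in that switch, had 210 in Jeko-1/R against 285 in Jeko-1, and 134 in Raji/R against 84.1 in Raji. PAX5, the B-cell identity factor that represses XBP1, had 8458 in Jeko-1/R against 8394 in Jeko-1, and 5628 in Raji/R against 13252 in Raji. PAX5 was lower in Raji/R, at -1.24 on the log2 scale, where XBP1 stood at -0.22. MZB1, an ER cochaperone of B cells, had 6029 in Jeko-1/R against 4869 in Jeko-1, and 5081 in Raji/R against 3603 in Raji, and so was higher in both sublines. The other plasma cell markers SDC1, JCHAIN and TNFRSF17 were lower in Raji/R, with log2 ratios of -0.46, -0.16 and -0.17. In the Jeko-1 pair their log2 ratios were -0.30, -0.08 and 0.34. HSPA6, the inducible cytosolic Hsp70, had 127 in Jeko-1/R against 467 in Jeko-1, and 1777 in Raji/R against 160 in Raji. DNAJB1, its cytosolic cochaperone, had 505 in Jeko-1/R against 1198 in Jeko-1, and 7311 in Raji/R against 1865 in Raji. The cytosolic heat shock pair thus differed in opposite directions in the 2 lines, with log2 ratios of -1.88 and -1.25 in the Jeko-1 pair and 3.47 and 1.97 in the Raji pair, while no ER chaperone member reached 2-fold in either pair.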

How the data were processed

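Total RNA from 4 cultures was extracted with Trizol and made into biotinylated cRNA, per the labels' protocols, and read on Affymetrix Human Genome U133 Plus 2.0 arrays, per the platform annotation. The authors deposited log2 signals of 54613 probe sets, made with MAS5, as the submitters' processing notes list (version not given in the sources used here). Because MAS5 applies 1 scaling factor to a whole array, intensity-dependent differences between arrays remain. Detection calls, array scan dates and RNA quality were not used here.

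The annotation gave 41091 probe sets a single symbol, 1801 several and 11721 none, and the first kind was used. Values below the pooled median (log2 6.28, signal 77.5) were raised to it. A gene took its brightest probe set, and a ratio with 1 side below this floor is a lower bound. Within a line, ratios were described with no test. Over both lines a limma model (limma 3.58.1, R 4.3.3) held terms for cell line, which pairs the samples, and for resistance, over 15575 genes, two-sided, with Benjamini-Hochberg adjustment at 0.05. All members are named; from each wider list, up to 3 genes per pair with the largest ratios of at least 1.5-fold. The members and lists were chosen with earlier results of these data known. The labels do not say that a group had more than 1 culture. Promoter sequences are from RefSeq (GRCh38.p14). The steps, tested on simulated data, used Python 3.11.15, pandas 2.3.3, numpy 2.4.6, scipy 1.17.1, statsmodels 0.14.6 and matplotlib 3.10.9. Alternatives were quantile normalization, a lowess adjustment (fraction 0.3) of the pair ratios, a floor at the 75th percentile, no floor, a pseudocount of 64, the mean of a gene's probe sets, leaving out x_at and s_at probe sets, an intensity trend, and leaving out a term of the fit.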

Additional observations from a re-analysis of the deposited data

How the results depend on the processing

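The members' median log2 ratio ranged over the alternatives from 0.08 to 0.13 in the Jeko-1 pair and from 0.07 to 0.08 in the Raji pair, and 0 members were called for resistance under any alternative of the fit. The 0 members at least 1.5-fold higher in Jeko-1/R became 1 when a gene's probe sets were averaged and also 1 when x_at and s_at probe sets were left out. With the mean of probe sets, 6 members in place of 3 were at least 1.5-fold higher and 3 in place of 1 lower in Raji/R. Of those added, EIF2AK3 (1.36), XBP1 (1.36) and SEC61B (-0.83) took in a probe set below the floor on both Raji arrays. The 3 members higher in the main setting were 2 with quantile normalization and with lowess, where HSPA5 was lost, and with the pseudocount, where CRELD2 was lost. Without x_at and s_at probe sets, 13 of 23 members were above 0 in the Raji pair, against 20 of 32, and 5 of 25 were called lower in the Jeko-1 lines, against 11 of 32; fewer members had a value there. Line differences that passed the test and reversed were XBP1 at 0.54 with the mean of probe sets, ATF4 at 0.038 with quantile normalization and ASNS at 0.56 without x_at and s_at probe sets. Of those that had not passed, SHMT2 (0.80), HERPUD1 (0.62), PDIA6 (0.04) and MANF (0.04) changed sign with quantile normalization, CANX (-0.01), PDIA4 (-0.13), SHMT2 (0.10) and HERPUD1 (1.67) with the mean of probe sets, and PDIA4 (-0.65), SHMT2 (0.29) and HERPUD1 (0.78) when x_at and s_at probe sets were left out. For XBP1 and ASNS the reversing probe sets lay near or below the floor, and for ATF4 the cause was not tested. Of all 1.5-fold calls in the Raji pair 64.1% were higher, against 51.2% with quantile normalization, 39.7% with lowess and 41.3% with the higher floor. Leaving out an array of the fit with both terms leaves no residual degrees of freedom, so that was not run, and the lowess and no-floor settings were used for the pair ratios only. The fit without the cell line term, which leaves out the pairing, also called 0 members. Signals near the floor limit HSP90B1 and PPP1R15A most, each with a signal under 300 in 1 of the lines.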
